A study of Mus musculus with 4 samples.

Results

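The 10 genes described here carry the response to DNA in the cytosol. They were chosen by name, as the rows of the tables listed under Mb21d1, Tmem173, Tbk1, Irf3, Trex1, Zbp1, Aim2, Ifi204, Ddx41 and Ifnb1, and all 10 were found among 24441 gene symbols, each at 1 locus. Their levels came from RNA sequencing of Langerhans cells, dendritic-type cells that present antigen in the epidermis, taken by sorting from mice of 4 weeks of age. The Tfam cKO group held 2 libraries from CD11cCreTfamfl/fl mice, in which a Cre recombinase driven by CD11c, a gene of dendritic cells, acts on floxed alleles of Tfam. The WT group held 2 libraries from wild-type mice of the same age. The labels give no treatment and no strain, and do not say whether WT mice carried Cre or how many animals went into a library. Levels are FPKM, fragments scaled by transcript length and by the number of mapped fragments, so that genes can be compared per length.

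The enzyme cGAS (Mb21d1) binds double-stranded DNA and makes the cyclic dinucleotide cGAMP, which binds the membrane adaptor STING (Tmem173). STING then recruits the kinase TBK1, TBK1 phosphorylates the transcription factor IRF3, and IRF3 switches on the interferon beta gene Ifnb1. Mitochondrial DNA that leaves the organelle can act as such a ligand, and TFAM, which packages that DNA, has been tied to its release in mouse fibroblasts. Other members sense DNA on separate routes: AIM2 builds an inflammasome, ZBP1 binds Z-form nucleic acid and engages the kinase RIPK3, and the exonuclease TREX1 removes cytosolic DNA.

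The targeted gene itself, Tfam, was at 1.65 and 1.53 FPKM in the Tfam cKO libraries, against 3.17 and 1.61 FPKM in the WT libraries. WT 2 was thus near the Tfam cKO level, and the difference, −0.35 on the log2 scale, fell short of the threshold (limma adjusted p = 0.899). A gene-level value can hold fragments from outside a deleted stretch, so it does not check the deletion, and every direction below rests on the labels. Of the Langerhans cell markers, Cd207 (langerin) was between 1374 and 2098 FPKM and all 10 were above 1 FPKM in every library. Keratinocyte markers were also high: the summed level of 10 of them was 13668 and 12034 FPKM in Tfam cKO and 13551 and 9222 FPKM in WT, led by Krt5 and Krt14, and none was at 0. Markers of dendritic epidermal T cells, 8 in the tables, summed to 270 and 414 FPKM in Tfam cKO and 361 and 444 FPKM in WT. Markers of fibroblasts summed to at most 1.07 FPKM in any library and those of neutrophils to at most 0.205 FPKM. Genes induced by cell dissociation, 14 in all, summed to 25163 and 17143 FPKM in Tfam cKO and 18911 and 18930 FPKM in WT. In these bulk samples fewer cells of a type and less RNA per cell cannot be told apart, and how far other cells contributed to the members' levels was not tested. The Y-linked gene Ddx3y was listed at 0 in both libraries numbered 1, and was at 9.34 FPKM in Tfam cKO 2 and 28.2 FPKM in WT 2. Xist, the transcript of the inactive X chromosome, was at 39.0 and 45.6 FPKM in Tfam cKO and at 64.6 and 5.38 FPKM in WT. Both libraries numbered 2 thus held Xist and Ddx3y, but they were not alike. Xist was above Ddx3y in Tfam cKO 2 and below it in WT 2. Differences are also given within each library number as a description, since the labels do not say what the number stands for.

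The sorted Langerhans cell libraries of both genotypes held transcripts for every step from cGAS to IRF3, at levels that did not separate Tfam cKO from WT, while the output gene Ifnb1 was listed at 0 in 3 of 4 libraries. Of the 10 members, 8 averaged 1 FPKM or more and were tested, and none was called at a limma adjusted p below 0.05 or at an unadjusted p below 0.05. Over all 10910 symbols tested in the same fit, 0.0183% were called higher and 0% lower in Tfam cKO, and 6.21% had an unadjusted p below 0.05, 5.01% higher and 1.19% lower. Adjusted p-values of the 8 lay between 0.923 and 0.990. Zbp1 and Ifnb1 fell below the level filter and were not tested.

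**Figure D1:**
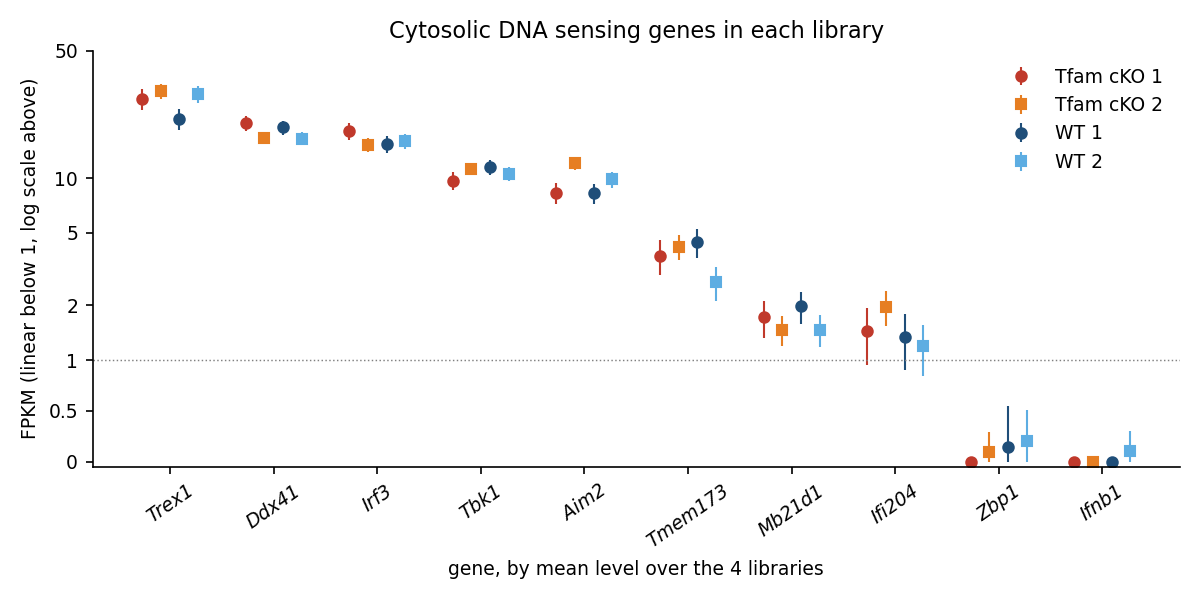
FPKM of the 10 genes in each of the 4 libraries (vertical axis, linear below 1 and logarithmic above), with the 95% interval that Cufflinks gave for each value as a bar; red and orange mark Tfam cKO 1 and 2, dark and light blue WT 1 and 2, and the dotted line marks 1 FPKM. Trex1 stands highest, between 21.2 and 30.0 FPKM, and Zbp1 and Ifnb1 lie at or near 0 in all libraries.

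Among the sensors, the cGAS gene Mb21d1 was weakly expressed, at 1.72 and 1.47 FPKM in Tfam cKO and 1.98 and 1.47 FPKM in WT. Library 2 had the same level in both genotypes, library 1 was higher in both, and the groups overlapped. Its log2 fold change, Tfam cKO over WT, was −0.06 on the log2(FPKM + 1) scale, with a 95% interval of −0.54 to 0.41 (limma adjusted p = 0.988). This gene lies on chromosome 9, from 78278324 to 78291044 in the coordinates of the files. In these coordinates, 0 of the 10 members overlapped the gene of that name in the GRCm38 annotation, although mm10 is named in the submitters' processing notes, so the build of the positions is unresolved.

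Ddx41, a DEAD-box helicase reported as a DNA sensor upstream of STING in mouse dendritic cells, was the most abundant sensor among the 10 members. Its levels were 20.0 and 16.6 FPKM in Tfam cKO, against 19.0 and 16.5 FPKM in WT. In both genotypes library 1 was higher than library 2, and the genotypes differed by 0.07 in library 1 and by 0.01 in library 2 (log2). The log2 fold change was 0.04 (95% interval −0.36 to 0.44; limma adjusted p = 0.990). The sign turned to −0.08 when each library was rescaled to a common total.

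Aim2, whose protein binds cytosolic DNA and recruits the adaptor ASC to activate caspase-1, was at 8.30 and 12.1 FPKM in Tfam cKO and at 8.27 and 9.83 FPKM in WT. Library 2 was the higher one in each genotype. The Tfam cKO libraries differed more from each other than from the WT libraries of the same number. Libraries numbered 1 differed by 0.0053 (log2) and libraries numbered 2 by 0.28. The fold change over all 4 libraries was 0.14 (95% interval −0.33 to 0.61; limma adjusted p = 0.960), and it turned to −0.11 without Tfam cKO 2.

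Ifi204, a PYHIN family member regarded as a mouse counterpart of the human DNA sensor IFI16, was the only tested member whose genotypes did not overlap, with Tfam cKO higher. It was at 1.44 and 1.97 FPKM in Tfam cKO and at 1.35 and 1.20 FPKM in WT. Separation in this direction held for 25.4% of all tested symbols, in the other for 9.75%, and in either for 35.2%. These separations were counted in FPKM as deposited. Library totals were 395707 and 375823 FPKM in Tfam cKO and 369761 and 338783 FPKM in WT. Once each library was divided by its total, Ifi204 in Tfam cKO 1 was no longer above WT 1. The value of WT 1 lay within the Cufflinks interval of Tfam cKO 1, 0.949 to 1.93 FPKM. The log2 fold change of 0.24 had a 95% interval of −0.24 to 0.72 (limma adjusted p = 0.923). It rested on 34 to 84 effective fragments per library, the number that the width of Cufflinks' interval corresponds to if it held counting error only. Ifi204 belongs to a family of similar neighbouring genes, and how fragments matching several of them were divided is not stated, so its level is uncertain.

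Zbp1, the sensor of Z-form nucleic acids, was listed at 0 in Tfam cKO 1 and at 0.0952 FPKM in Tfam cKO 2, against 0.140 FPKM in WT 1 and 0.201 FPKM in WT 2. These values correspond to at most 2 effective fragments in any library, and each Cufflinks interval reached 0. With no filter on low levels its log2 fold change was −0.16 (limma adjusted p = 0.870). Zbp1 was thus near 0 in both genotypes, and so few fragments could not resolve a difference at that level.

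The adaptor gene Tmem173, which encodes STING on chromosome 18 (35893331 to 35900208 in the files), had the widest interval of the tested members. Its level was 3.75 and 4.20 FPKM in Tfam cKO and 4.45 and 2.68 FPKM in WT. The Tfam cKO libraries lay between the WT libraries. Libraries numbered 1 differed by −0.20 and libraries numbered 2 by 0.50, opposite in sign, and the fold change over all was 0.15 (95% interval −0.35 to 0.65; limma adjusted p = 0.960). Leaving out WT 2 turned it to −0.13, and leaving out WT 1 gave 0.43 (limma adjusted p = 0.382).

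Tbk1, the kinase that phosphorylates both STING and IRF3, was at 9.69 and 11.3 FPKM in Tfam cKO and at 11.5 and 10.5 FPKM in WT. The lowest and the highest value were those of Tfam cKO 1 and WT 1, and the groups overlapped. With 320 to 655 effective fragments per library its interval was the narrowest of the 8, −0.44 to 0.31 around a difference of −0.07 (log2; limma adjusted p = 0.981). Irf3, the transcription factor downstream of it, was at 18.0 and 15.3 FPKM in Tfam cKO and at 15.3 and 15.9 FPKM in WT. Here 3 of 4 libraries were close together and Tfam cKO 1 stood above them. The log2 fold change was 0.08 (95% interval −0.30 to 0.47; limma adjusted p = 0.975), and −0.03 after rescaling to a common total. Irf3 lies on chromosome 7, from 52253017 to 52258218 in the files. Its neighbours Bcl2l12 and Scaf1 begin 68 and 101 bases away without overlap.

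Trex1, the exonuclease that degrades cytosolic DNA and so limits cGAS, was the most abundant member. It was at 27.1 and 30.0 FPKM in Tfam cKO, against 21.2 and 29.0 FPKM in WT. WT 1 stood below the other libraries, whose Cufflinks intervals overlapped one another. The interval of WT 1, 18.3 to 24.1 FPKM, also overlapped that of Tfam cKO 1, 23.6 to 30.7 FPKM. The log2 fold change was 0.20 (95% interval −0.25 to 0.64; limma adjusted p = 0.931), 0.34 between the libraries numbered 1 and 0.05 between the libraries numbered 2. Without WT 1 it was −0.02. Trex1 is a short gene on chromosome 9, from 108960445 to 108962237 in the files, 23 bases from Atrip and 139 bases from Shisa5. None of the 10 loci was overlapped by another row of the tables.

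Ifnb1, the interferon gene at the end of the route, was listed at 0 in Tfam cKO 1, Tfam cKO 2 and WT 1, and at 0.102 FPKM in WT 2. That value corresponds to 1 effective fragment. Its promoter is shown because it is the stretch on which IRF3 and NF-kappa B act together, and because it held the motifs of both. The window runs from 250 bases before to 50 bases after the start of the gene on the minus strand of chr4:88522745-88523044 in RefSeq's GRCm38.p6, and is printed 5′ to 3′. Capitals mark matches to AANNGAAA, the core of sites for interferon regulatory factors, and to GGGANNTTC, a short form of the NF-kappa B site, searched on both strands.
Ifnb1: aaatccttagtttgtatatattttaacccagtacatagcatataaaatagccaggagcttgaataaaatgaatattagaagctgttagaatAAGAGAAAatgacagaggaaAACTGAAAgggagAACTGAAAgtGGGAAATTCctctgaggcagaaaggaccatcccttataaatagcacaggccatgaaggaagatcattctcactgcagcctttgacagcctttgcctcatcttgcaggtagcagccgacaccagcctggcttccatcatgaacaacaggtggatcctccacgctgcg
AANNGAAA began at positions −159, −139 and −126 from the start and GGGANNTTC at −116, with no overlap between matches. RefSeq promoter windows were found for 7 of the 10 members, in 8 entries, and not for Tmem173, Zbp1 and Ifi204. Of these 8 windows, 1 held AANNGAAA, that of Ifnb1, and 2 held GGGANNTTC, those of Ifnb1 and Aim2. Over 32851 promoter windows of the same length, 23.9% held AANNGAAA and 3.94% held GGGANNTTC. A match is a description of the letters, and its absence from a window says nothing about the factors.

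By level, the members ran from Trex1 through Ddx41, Irf3, Tbk1, Aim2, Tmem173, Mb21d1 and Ifi204 to Zbp1 and Ifnb1, all in FPKM. Trex1 was higher than 81.5% of tested symbols, whose median level was 8.41 FPKM, Tbk1 higher than 57.8%, Tmem173 than 26.1%, Mb21d1 than 7.86% and Ifi204 than 6.02%. The kinase, the transcription factor and the nuclease were thus above the median level, and the cGAS and STING genes below it. The ranges over the 4 libraries overlapped between Ddx41 and Irf3, between Tbk1 and Aim2, between Mb21d1 and Ifi204 and between Zbp1 and Ifnb1, so the order within those pairs is not set. They were separate between the other neighbours, with Aim2 averaging 2.55 times Tmem173 and Tmem173 2.27 times Mb21d1. Effective fragments ranged from 34 to 681 per library among the 8 tested members.

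**Figure D2:**
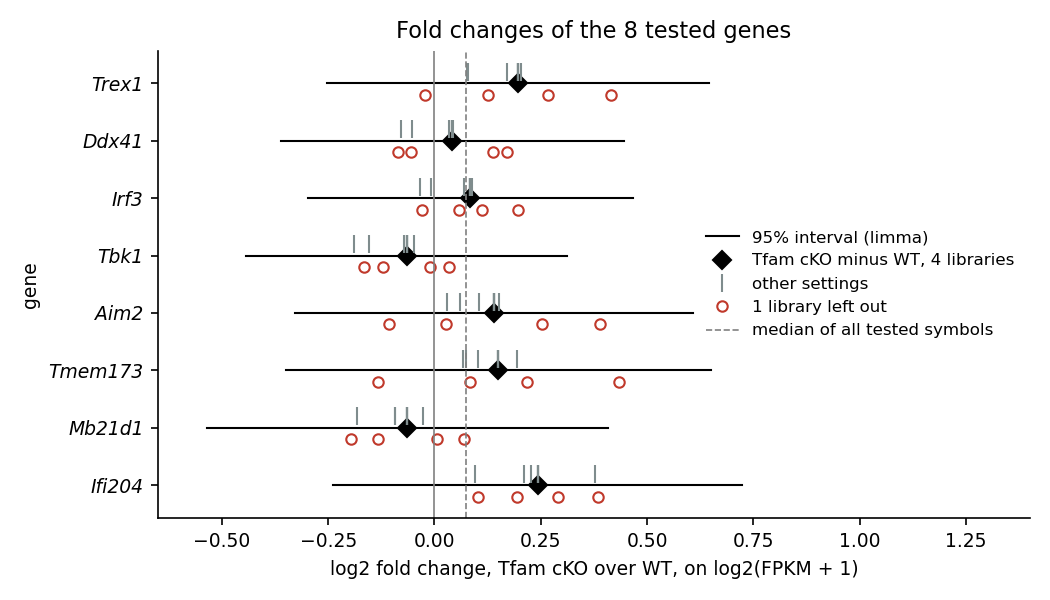
Log2 fold changes of the 8 tested genes, Tfam cKO over WT (horizontal axis), with limma's 95% interval as a line, values under other settings as grey ticks and values with 1 library left out as open circles; the dashed line marks the median of all tested symbols. All intervals include 0, and leaving out a library turned the sign of 7 of the 8, Ifi204 being the exception.

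As a set, the 8 tested members had 6 positive and 2 negative log2 fold changes, from −0.07 to 0.24, with a median of 0.11, beside a median of 0.07 and 65.2% positive over all tested symbols. Between libraries numbered 1, 5 of the 8 differences were positive, and between libraries numbered 2, 6 were. Rescaling each library to a common total (TPM) moved the median of all symbols by −0.11, and 4 of the 8 members were then positive and 4 negative. The outermost bounds of the 8 intervals, −0.54 and 0.72, are ratios of 0.690 and 1.65 on the FPKM + 1 scale, which understates changes of genes with low levels. The bounds describe the uncertainty of these 8 estimates and set no limit of detection. With 2 libraries per group, larger differences could also go uncalled.

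Aim2 and Ifi204 share a position that the choice by name did not use. Both lie in the PYHIN gene cluster on chromosome 1, which in the files spans 175350734 to 175961886 from Aim2 to Ifi205 and holds 12 listed genes, 8 of them tested. The most abundant gene there, and the highest among the listed other DNA sensors and cofactors, was Ifi202b, whose protein binds DNA through HIN domains and counteracts AIM2 in the mouse. It was at 277 and 299 FPKM in Tfam cKO, against 166 and 128 FPKM in WT. The genotypes did not overlap, and the log2 differences were 0.74 in library 1 and 1.22 in library 2. The log2 fold change of 0.98 (SE 0.21, 95% interval 0.50 to 1.45, limma unadjusted p = 0.00132) did not pass over all symbols (limma adjusted p = 0.354). It passed only with the replicate number, whose meaning is not given, as a block (limma adjusted p = 0.00404). Mndal, the next PYHIN gene after Ifi204, had the opposite order, with 12.3 and 16.0 FPKM in Tfam cKO and 21.9 and 19.7 FPKM in WT (log2 fold change −0.54; limma adjusted p = 0.662). Mndal, and Ifi207 below, are named after their values were seen. Ifi207, at 39.3 and 32.4 FPKM in Tfam cKO and 26.97 and 33.4 FPKM in WT, overlapped between genotypes. Ifi202b is known for levels that differ among mouse strains. The labels name no strain, and whether strain differed between the groups was not tested. These genes are similar in sequence, so the division of fragments among them is uncertain for Ifi202b and Mndal as well.

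**Figure D3:**
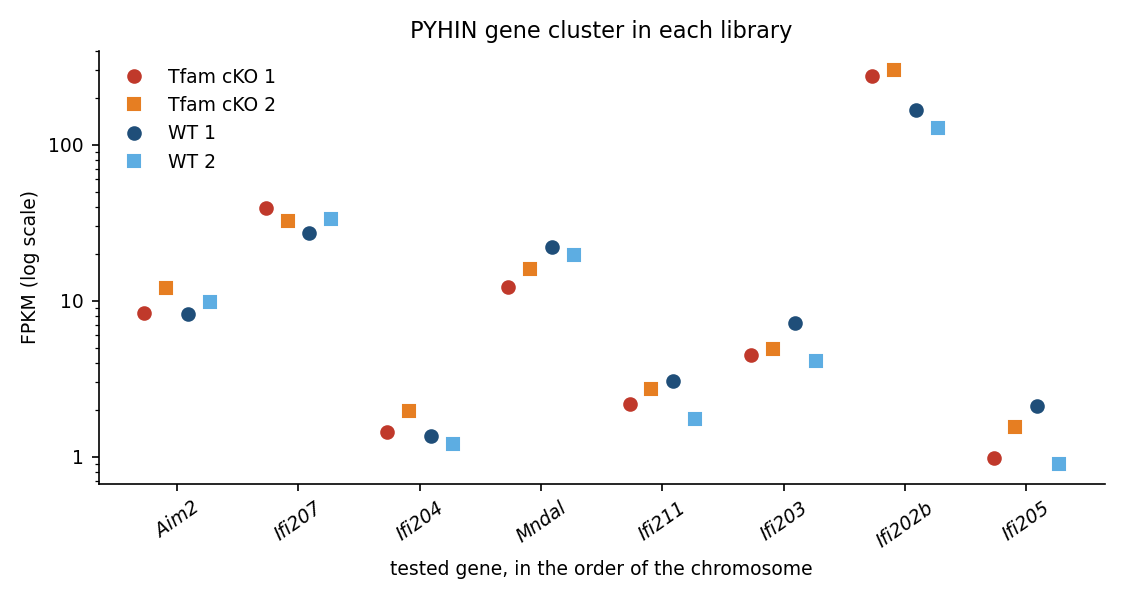
FPKM (logarithmic axis) of the 8 tested genes of the PYHIN cluster in each library, in the order of the chromosome; red and orange mark Tfam cKO 1 and 2, dark and light blue WT 1 and 2. Ifi202b is at 277 and 299 FPKM in Tfam cKO and 166 and 128 FPKM in WT, while the groups overlap for Aim2, Ifi207, Ifi211, Ifi203 and Ifi205.

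The wider pathway was read from 9 further lists ordered by role, with 116 tested genes, of which 0 passed the limma adjusted threshold in either direction. At an unadjusted p below 0.05 there were 12, or 10.3%, beside 6.21% of all tested symbols. The lists were chosen with earlier results of these data known, so these shares are a description and test no excess. The genotypes were separate with Tfam cKO higher for 28.4% of the 116 and lower for 11.2%, beside 25.4% and 9.75% over all symbols. Separation was counted in FPKM as deposited, where both Tfam cKO libraries had higher totals than both WT libraries. The median log2 fold change was 0.07, as over all symbols.

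The other DNA sensors and cofactors had a median log2 fold change of 0.03 over 26 tested genes. After Ifi202b, the most abundant were Hnrnpa2b1, a nuclear RNA-binding protein reported to sense viral DNA, at 177 and 179 FPKM in Tfam cKO and 205 and 150 FPKM in WT, and Lrrfip1, which binds nucleic acids, at 91.9 and 79.5 FPKM in Tfam cKO and 104 and 86.5 FPKM in WT. Both overlapped between genotypes. Polr3d and Polr3g, subunits of the RNA polymerase III that can transcribe AT-rich DNA into an RNA ligand, were chosen after their values were seen. Polr3d was at 10.6 and 9.56 FPKM in Tfam cKO and 7.83 and 7.06 FPKM in WT (limma adjusted p = 0.786), and Polr3g at 3.83 and 4.22 FPKM in Tfam cKO and 2.06 and 2.90 FPKM in WT (limma adjusted p = 0.685).

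Genes of STING traffic and control had a median of 0.19 over 21 tested genes, with 10 separated upwards and 3 downwards, beside 25.4% and 9.75% of all tested symbols. None of the 21 had an unadjusted p below 0.05. The most abundant were the cargo receptor gene Tmed2, at 89.2 and 81.6 FPKM in Tfam cKO and 91.9 and 70.0 FPKM in WT, the sterol-regulated Insig1, at 58.5 and 67.6 FPKM in Tfam cKO and 39.8 and 74.8 FPKM in WT, and the cargo receptor gene Surf4, at 63.6 and 52.5 FPKM in Tfam cKO and 57.1 and 52.9 FPKM in WT. All 3 overlapped between genotypes. Kinases and transcription factors beside TBK1 and IRF3 had a median of 0.09 over 18 tested genes. Their most abundant member was Rela, the p65 subunit of NF-kappa B, at 89.4 and 74.6 FPKM in Tfam cKO and 46.5 and 54.8 FPKM in WT. The groups were separate, with a log2 fold change of 0.68 (SE 0.19; unadjusted p = 0.00634) that did not pass over all symbols (limma adjusted p = 0.554). Nfkb1, the other subunit of that dimer, overlapped at 61.1 and 48.3 FPKM in Tfam cKO and 58.7 and 43.2 FPKM in WT, and Irf1, a further interferon regulatory factor, at 30.9 and 35.3 FPKM in Tfam cKO and 25.6 and 36.2 FPKM in WT. Tbkbp1, a TBK1-binding adaptor chosen after its values were seen, was at 2.52 and 1.61 FPKM in Tfam cKO and 1.09 and 0.784 FPKM in WT (limma adjusted p = 0.685).

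**Figure D4:**
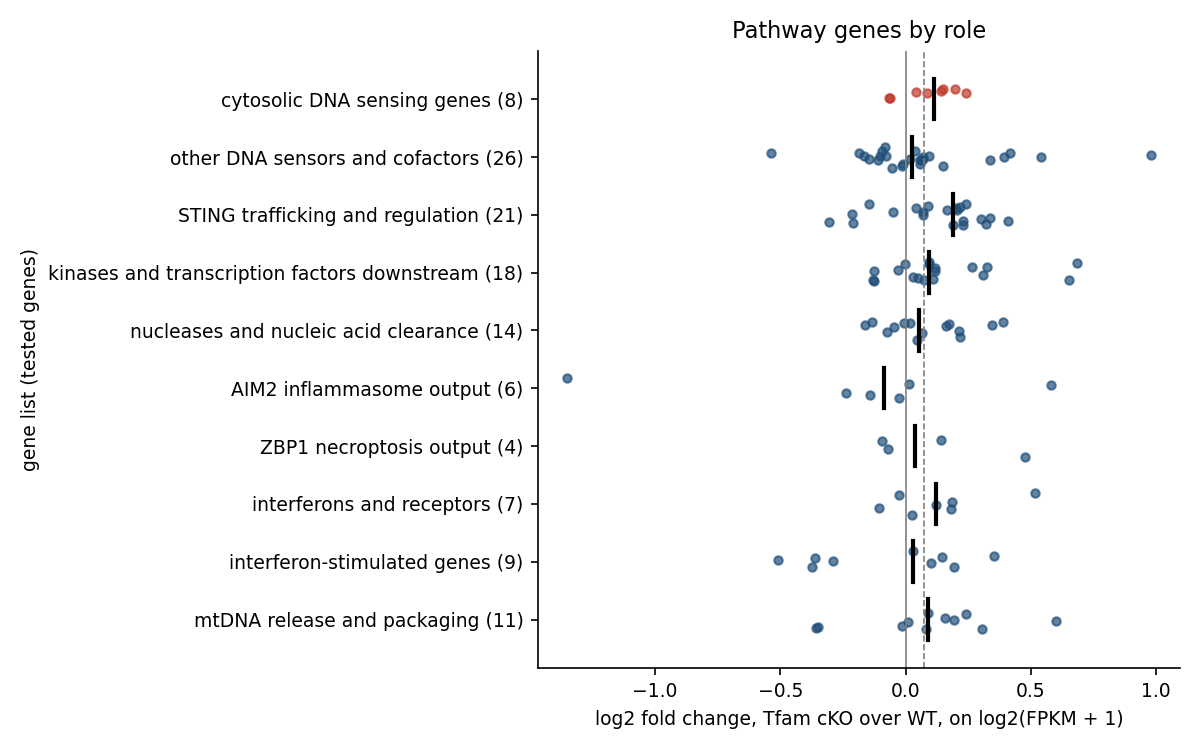
Log2 fold changes, Tfam cKO over WT (horizontal axis), of the tested genes in each list, 1 point per gene with random vertical spread; red points are the 8 tested cytosolic DNA sensing genes, black bars are list medians, and the dashed line is the median of all tested symbols. List medians run from −0.08 for the AIM2 inflammasome output to 0.19 for STING trafficking and regulation.

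Nucleases and other clearance genes had a median of 0.06 over 14 tested genes. The most abundant after Trex1, which is not in that list, were Rnaseh2c of the RNase H2 complex, at 24.4 and 39.3 FPKM in Tfam cKO and 37.4 and 25.1 FPKM in WT, the exonuclease gene Pld3, at 31.0 and 34.5 FPKM in Tfam cKO and 25.9 and 32.1 FPKM in WT, and the lysosomal RNase gene Rnaset2b, at 26.9 and 32.3 FPKM in Tfam cKO and 21.5 and 37.7 FPKM in WT. Each overlapped between genotypes. Downstream of AIM2, Il1b, the inflammasome's cytokine substrate, was at 38.9 and 11.0 FPKM in Tfam cKO and 88.7 and 33.8 FPKM in WT. Library 1 was the higher one in both genotypes and the groups overlapped, with log2 differences of −1.17 in library 1 and −1.53 in library 2. In the fit with genotype alone its log2 fold change was −1.35 (SE 0.56), short of the threshold (limma adjusted p = 0.796). Without Tfam cKO 1 it was −2.21, without Tfam cKO 2 −0.49, without WT 1 −0.67 and without WT 2 −2.03. With the replicate number as a block, Il1b passed the threshold (limma adjusted p = 1.76e-06). The labels do not say what that number stands for, so the block fit is not taken as the result. Il18, another substrate, was at 23.0 and 21.1 FPKM in Tfam cKO and 27.3 and 21.8 FPKM in WT, and Pycard, which encodes ASC, at 14.2 and 12.9 FPKM in Tfam cKO and 16.2 and 11.8 FPKM in WT. Gsdmd, the pore-forming substrate of caspase-1, chosen after its values were seen, was at 6.75 and 5.29 FPKM in Tfam cKO and 3.27 and 4.11 FPKM in WT (limma adjusted p = 0.659).

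Downstream of ZBP1, the kinase gene Ripk3 was at 9.40 and 11.7 FPKM in Tfam cKO and 7.14 and 7.41 FPKM in WT, separate but not past the threshold (log2 fold change 0.48; limma adjusted p = 0.685). Mlkl, the effector of necroptosis that RIPK3 phosphorylates, was between 0.0610 and 0.378 FPKM in all libraries and was not tested. Ripk1, a partner kinase, was at 13.9 and 13.9 FPKM in Tfam cKO and 13.5 and 11.5 FPKM in WT (limma adjusted p = 0.952). It was separate by a small margin in FPKM, but overlapped once each library was divided by its total. Cflar, an inhibitor of caspase-8, was at 15.2 and 17.1 FPKM in Tfam cKO and 17.5 and 16.4 FPKM in WT.

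Of the other type I interferon genes on the list, Ifna1, Ifna2, Ifna4, Ifna5, Ifne and Ifnz were listed at 0 in all 4 libraries, and Ifnk, a keratinocyte interferon, was at 0.295 and 0.768 FPKM in Tfam cKO and at 0 and 0.373 FPKM in WT. The receptor side was expressed: Ifnar2 was at 25.5 and 21.7 FPKM in Tfam cKO and 16.7 and 15.6 FPKM in WT, separate but not past the threshold (log2 fold change 0.52; limma adjusted p = 0.660), while Ifnar1 overlapped at 14.0 and 12.7 FPKM in Tfam cKO and 12.6 and 13.5 FPKM in WT. Jak1, the kinase bound to the receptor, was at 49.7 and 55.6 FPKM in Tfam cKO and 48.7 and 43.7 FPKM in WT (limma adjusted p = 0.928). Its groups were separate in FPKM with Tfam cKO higher, but overlapped once each library was divided by its total.

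Interferon-stimulated genes spanned a wide range of levels. Of 22 listed, 13 had a mean below 1 FPKM, among them Ifit1, at 0.208 and 0.216 FPKM in Tfam cKO and 0.0920 and 0.292 FPKM in WT, and Mx1, at 0.0652 and 0.0767 FPKM in Tfam cKO and 0 and 0.132 FPKM in WT. The 9 tested ones had a median log2 fold change of 0.03. Ifitm3, which restricts virus entry, was the most abundant, at 254 and 254 FPKM in Tfam cKO and 291 and 181 FPKM in WT. Bst2, which tethers budding virus, was at 27.4 and 30.3 FPKM in Tfam cKO and 22.9 and 27.6 FPKM in WT, and the chemokine gene Cxcl10, a target of IRF3, at 15.6 and 16.7 FPKM in Tfam cKO and 18.7 and 13.3 FPKM in WT. Oas2, which makes a nucleotide second messenger on binding double-stranded RNA, was chosen after its values were seen and had the opposite order to Ifnar2, at 9.53 and 11.8 FPKM in Tfam cKO and 14.8 and 16.2 FPKM in WT (log2 fold change −0.51; limma adjusted p = 0.662).

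Genes tied to the packaging and release of mitochondrial DNA had a median of 0.09 over 11 tested genes. The outer-membrane channel genes Vdac1, at 74.0 and 78.6 FPKM in Tfam cKO and 82.6 and 62.0 FPKM in WT, and Vdac2, at 59.9 and 55.6 FPKM in Tfam cKO and 55.5 and 48.2 FPKM in WT, were the most abundant with Bax, a pore-forming protein of that membrane, at 60.9 and 56.6 FPKM in Tfam cKO and 45.6 and 49.2 FPKM in WT (limma adjusted p = 0.869). Vdac1 overlapped between genotypes, while Vdac2 and Bax were separate in FPKM with Tfam cKO higher. Once each library was divided by its total, Vdac2 overlapped and Bax stayed separate. Ppif, which encodes cyclophilin D, a regulator of the permeability transition pore, was chosen after its values were seen, at 15.9 and 19.4 FPKM in Tfam cKO and 11.1 and 11.4 FPKM in WT. Its genotypes were separate, at 0.60 on the log2 scale, short of the threshold (limma adjusted p = 0.565).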

How the data were processed

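Cells sorted from an epidermal suspension gave RNA by Trizol and libraries by the NEBNext Ultra kit, per the labels' protocols. Strand, RNA selection, aligner and annotation have no entry in the labels and were not used here. The deposited values are FPKM from Cufflinks, per the file headers, with a 95% interval for each value in each library's table. CASAVA, Cufflinks and mm10 are named per the submitters' processing notes. Read depth is unknown. The upper bound was taken as 2 standard errors above the value. The squared ratio of value to standard error was taken as the effective number of fragments. This number assumes that the interval held counting error only.

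Loci of a symbol were summed (301 symbols, none of them a member). Symbols averaging 1 FPKM or more were tested on log2(FPKM + 1), Tfam cKO against WT, with limma 3.58.1 (R 4.3.3). The model held genotype alone, variances were moderated along a trend with the mean level, and p-values were adjusted by Benjamini-Hochberg at 0.05. The labels do not say that the 2 libraries of a group are separate animals or pools. Y-linked transcripts were seen only in the libraries numbered 2, so the 2 libraries of a group did not hold the same RNA. The p-values measure the spread between these libraries, and how much of it is technical is unknown. The fit was also run on simulated data with independent noise, as a check of the code only, and no result rests on it. The members and gene lists were chosen with earlier results of these data known. All members are named, with the 3 tested genes of highest level in each other list. Genes at an unadjusted p below 0.05 in those lists, and genomic neighbours, were added after their values were seen. Alternatives were other scalings, filters, pseudocounts and variance settings, the replicate number as a term, the highest locus only, and each library left out. The NF-kappa B motif was shortened after a longer form had been searched.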

Additional observations from a re-analysis of the deposited data

How the results depend on the processing

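No member was called under any alternative run. The lowest adjusted p of a member was 0.382, for Tmem173 without WT 1. Calls over all symbols numbered 2 in the fit as reported, 0 with no filter, 1 with the filter at 5 FPKM, 1 with a pseudocount of 5, 5 with robust moderation, 184 with the replicate number as a block and 16 to 82 with a library left out. In the fits without a library the lone one is assumed to vary like the others. The labels do not say what the replicate numbers stand for. Deviations of same-numbered libraries correlated with r = 0.26 over 10910 genes, and Y-linked transcripts were seen only in the libraries numbered 2, but 2 pairs are too few to take the libraries as paired. With 2 libraries a group the block leaves 1 residual degree of freedom. Under the block Ifi202b (limma adjusted p = 0.00404), Rela (0.0426) and Il1b (1.76e-06) passed. With no filter the limma adjusted p of Ifi202b was 0.856. The median log2 fold change of the members was −0.0021 after rescaling to TPM, 0.026 after quantile normalization, and 0.028 to 0.13 with a library left out. These log2 fold changes turned sign after rescaling: Irf3 −0.034, Ddx41 −0.078, Hnrnpa2b1 −0.11, Tmed2 −0.034, Surf4 −0.052, Nfkb1 −0.013, Irf1 −0.0034, Rnaseh2c −0.10, Rnaset2b −0.074, Ifnar1 −0.094, Cxcl10 −0.091, Vdac1 −0.032 and Ifi211 −0.041. After quantile normalization those that turned were Irf3 −0.0087, Ddx41 −0.054, Hnrnpa2b1 −0.13, Tmed2 −0.0077, Surf4 −0.049, Nfkb1 −0.014, Rnaseh2c −0.081, Rnaset2b −0.073, Ifnar1 −0.083, Cxcl10 −0.063 and Vdac1 −0.025. With a library left out, sign turned within the ranges Mb21d1 −0.20 to 0.069, Tmem173 −0.13 to 0.43, Tbk1 −0.17 to 0.035, Irf3 −0.029 to 0.20, Trex1 −0.022 to 0.41, Aim2 −0.11 to 0.39, Ddx41 −0.086 to 0.17, Hnrnpa2b1 −0.20 to 0.24, Tmed2 −0.11 to 0.28, Insig1 −0.25 to 0.65, Surf4 −0.065 to 0.21, Nfkb1 −0.11 to 0.33, Irf1 −0.13 to 0.36, Rnaseh2c −0.32 to 0.35, Rnaset2b −0.35 to 0.44, Il18 −0.30 to 0.015, Pycard −0.24 to 0.19, Cflar −0.15 to 0.014, Ifnar1 −0.039 to 0.089, Ifitm3 −0.20 to 0.49, Cxcl10 −0.20 to 0.26, Vdac1 −0.11 to 0.29 and Ifi211 −0.24 to 0.33. The cause was not tested. Zbp1 and Ifnb1 rest on no more than 2 effective fragments in any library, and each group holds 2 libraries.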
